A study of Rattus norvegicus with 8 samples.

Results

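Dense-core secretory granules store peptide hormones and their precursors until a signal releases them. The set described here holds 9 genes of the 15154 named genes with a probe on the array. Tg encodes thyroglobulin, the large secreted precursor of thyroid hormones. Chga, Chgb, Scg2 and Scg3 encode granins, acidic proteins that fill the granule. Scg5 encodes the chaperone 7B2, which binds the convertase made by Pcsk2. Pcsk1 and Pcsk2 encode the proteases that cut prohormones after pairs of basic residues, and Cpe encodes carboxypeptidase E, which trims the basic residues left behind. The genes were chosen by symbol, and chosen by how they stood between aged and young arrays in an earlier look at these data, so their differences between the ages are given as a description without p-values. Each gene had 1 probe, printed as a pair of spots, and 6 of the 9 passed the filter on dim probes, against 10236 of all 15154 named genes.

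The aged group was 4 samples of CD9-positive testis cells from Sprague Dawley rats of 21 months, and the young group was 4 such samples from rats of 4 months. All rats carried a germ-cell-specific GFP transgene, whose promoter the labels do not name, and the cells were sorted by FACS with an antibody to CD9, a surface tetraspanin of spermatogonia and of other cells. Total RNA of 18 ng per sample was labelled with Cy3 and hybridised to one-colour Agilent rat arrays, and the comparison asks which transcripts differ with age in these cells. The labels do not say whether samples came from separate animals or from pools, so the spread between samples may be technical. All arrays shared 1 slide, the aged arrays in one row and the young arrays in the other, so age and slide row cannot be told apart.

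Levels are log2 processed signals minus the 75th percentile over the non-control probes of the array, so 0 is the signal of a probe at that percentile, and a difference is the aged mean minus the young mean on that scale. Levels of different probes are not compared with each other. The 75th percentile was 331 to 524 intensity units on aged arrays and 326 to 503 on young arrays, and of 30367 probes per array, 63.0% to 69.2% on aged arrays and 65.4% to 72.0% on young arrays passed the software's test for signal well above background. Over all genes the limma fit called 67 of 10236 (0.655%) at an adjusted p under 0.05, of which 51 were higher in aged cells (0.498% of genes tested) and 16 lower (0.156%). At an unadjusted p under 0.05 there were 3217 genes (31.4%), 1827 higher (17.8%) and 1390 lower (13.6%). The split of calls depended on the scaling, with 1067 higher and 263 lower after scaling to array medians, 53 and 10 after quantile scaling and 6 and 952 after scaling to spike-in RNA. It also depended on the background correction, with 363 higher and 267 lower after normexp correction, and 219 and 34 when quantile scaling followed it. Over these genes the median difference was 0.11. Spermatogonial markers were present on the arrays, 15 of 16 with a probe passing the filter, and so were all 17 spermatid markers, so the sorted samples held RNA of later germ cells too.

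Of the 6 granule and prohormone genes that passed the filter, 3 were called, all higher in aged cells: Tg, Chgb and Scg5. All 3 were called in 10 of 22 alternatives, and Tg without Chgb and Scg5 in 1 (spike-in scaling). None of the 9 genes was called in 11, among them 7 of the 8 fits with 1 array left out. In these 11 limma called 0 genes over the whole array, so the loss was not particular to this set. In the same 3 every aged value exceeded every young value, which held for 10.2% of the 10236 genes (14.3% with both directions counted, 4.12% for aged lower). Because this contrast had a part in choosing the genes, nothing is read from these counts. Chga and Scg2 had slightly higher aged means with overlapping groups, Cpe had a lower aged mean with overlapping groups, and Scg3, Pcsk1 and Pcsk2 did not rise clear of background. The median difference of the 6 was 0.56, beside 0.11 for all genes tested. It rests on the same contrast as the counts, and the 6 differ in direction, so nothing is read from it either.

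**Figure D1:**
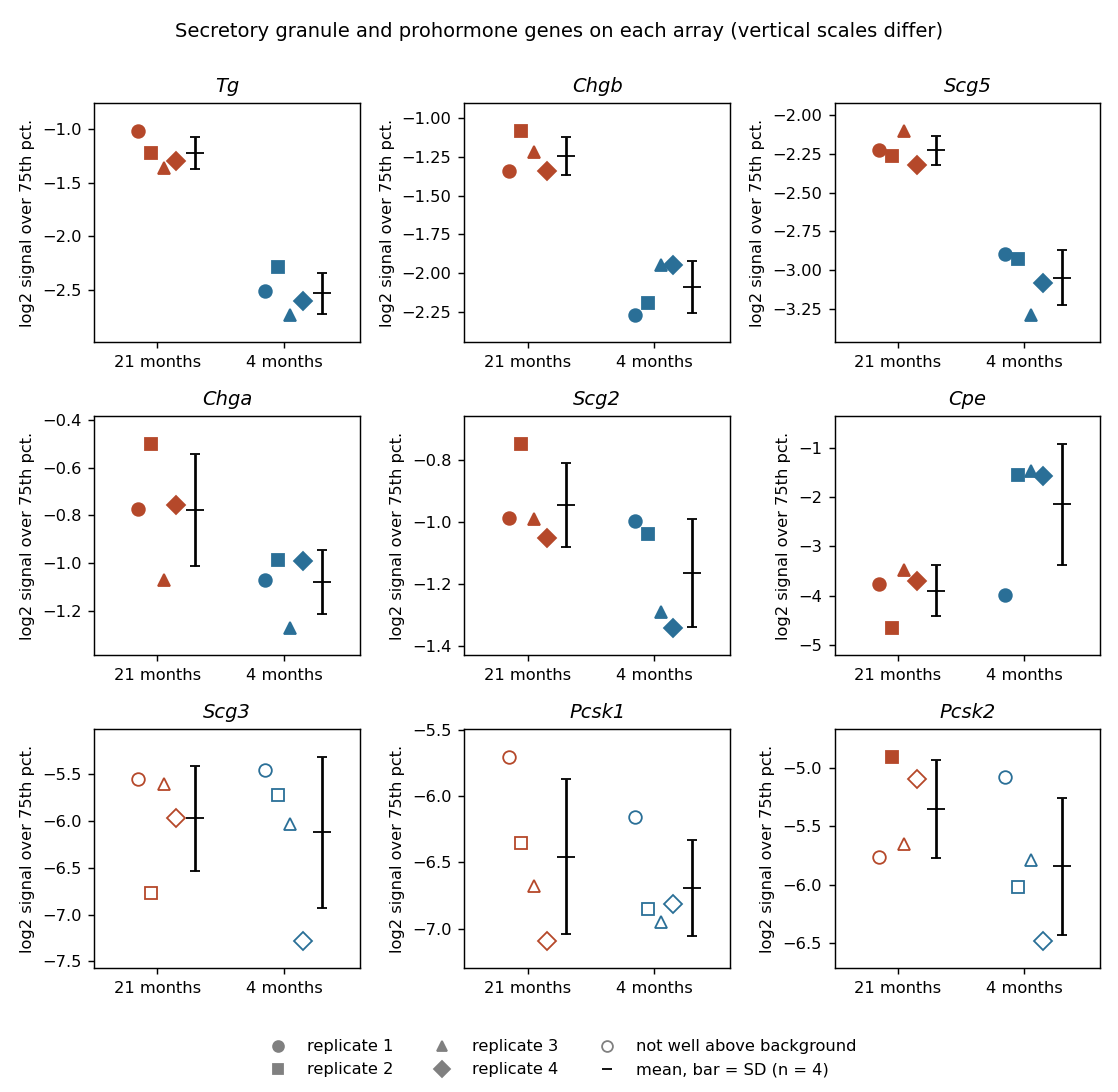
Level of each gene (log2 processed signal minus the 75th percentile of the array, vertical scales differ) on the 4 arrays of aged rats (left, red) and the 4 arrays of young rats (right, blue), with the mean and SD. The aged and young points are apart for Tg, Chgb and Scg5, young replicate 1 sits with the aged arrays for Cpe, and Scg3, Pcsk1 and Pcsk2 have open symbols, not well above background, on all arrays except aged replicate 2 for Pcsk2.

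Promoter sequence from RefSeq (build GRCr8, 250 bases before to 50 after the start used in the table) matched 6 of the 9 genes, and no sequence for Tg, Chga or Pcsk1 was printed. The promoters of the 4 matched genes that also passed the filter are shown because they let the 2 called genes (Chgb and Scg5) be read beside 2 that were not called (Scg2 and Cpe). Capitals mark TGACG and its reverse complement CGTCA, the core of the cAMP response element, whose full palindrome TGACGTCA holds both. The Scg2 promoter lies at chr9:88256817-88257116 on the minus strand, Chgb at chr3:140496462-140496761 on the plus strand, Scg5 at chr3:121042746-121043045 on the minus strand, and Cpe at chr16:29796457-29796756 on the plus strand.
Scg2: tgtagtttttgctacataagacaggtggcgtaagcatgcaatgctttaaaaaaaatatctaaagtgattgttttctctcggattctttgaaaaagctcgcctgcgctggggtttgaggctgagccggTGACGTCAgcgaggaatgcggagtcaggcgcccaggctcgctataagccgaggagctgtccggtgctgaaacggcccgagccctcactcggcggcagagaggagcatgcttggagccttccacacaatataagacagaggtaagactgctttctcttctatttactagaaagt
Chgb: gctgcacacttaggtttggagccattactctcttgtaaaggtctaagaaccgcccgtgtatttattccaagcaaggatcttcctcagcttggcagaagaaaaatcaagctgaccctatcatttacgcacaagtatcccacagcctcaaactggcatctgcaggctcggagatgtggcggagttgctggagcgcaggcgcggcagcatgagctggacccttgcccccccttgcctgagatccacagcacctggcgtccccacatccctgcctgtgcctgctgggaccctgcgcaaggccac
Scg5: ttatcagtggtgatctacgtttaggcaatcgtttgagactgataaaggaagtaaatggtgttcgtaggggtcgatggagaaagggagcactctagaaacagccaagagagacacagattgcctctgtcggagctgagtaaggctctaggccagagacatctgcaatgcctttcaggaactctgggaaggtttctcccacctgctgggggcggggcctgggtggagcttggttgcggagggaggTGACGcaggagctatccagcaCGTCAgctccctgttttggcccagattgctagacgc
Cpe: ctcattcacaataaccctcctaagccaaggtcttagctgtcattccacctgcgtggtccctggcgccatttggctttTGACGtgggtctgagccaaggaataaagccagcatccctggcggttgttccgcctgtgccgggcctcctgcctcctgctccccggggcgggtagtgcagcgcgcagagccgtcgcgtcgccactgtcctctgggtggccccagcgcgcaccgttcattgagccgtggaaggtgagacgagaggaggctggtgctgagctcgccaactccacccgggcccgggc

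Searched on both strands, TGACGTCA was in 1 of the 6 matched promoters, that of Scg2, where its first base lies at position -123 counted from the start base as 0, and in 1.83% of all 33469 promoters in the table. The shorter TGACG was in 5 of the 6 and in 21.2% of all promoters. Scg2 holds it 2 times, both within the palindrome, and Scg5 holds it 2 times, at -7 and, on the other strand, at 14. Cpe holds it 1 time at -173, and Scg3 and Pcsk2 hold it 1 time each. Chgb has no match in this window. The TATA letters TATAAA were in 0 of the 6 and in 14.2% of all promoters. The GC content was 50% for Scg2, 54.0% for Scg5, 56.7% for Chgb, 58.7% for Scg3, 64.7% for Cpe and 73.3% for Pcsk2, beside a median of 51.7% over all promoters.

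Thyroglobulin, which thyroid follicles iodinate and store to make thyroid hormone, was the gene of the set that differed most in the aged direction. Its processed signal was 164, 154, 155 and 214 intensity units in aged replicates 1 to 4, against 57.3, 82.8, 75.5 and 68.1 units in young replicates 1 to 4. On the scaled log2 level these were -1.01, -1.22, -1.36 and -1.29 in aged cells and -2.51, -2.29, -2.73 and -2.61 in young cells. All 4 aged values lay above all 4 young values, with a gap of 0.93 between the lowest aged and the highest young array, and both spots were well above background on all 8 arrays. The means were -1.22 ± 0.15 in aged cells and -2.54 ± 0.19 in young cells (SD, n = 4 each), a difference of 1.31 ± 0.13 (SE), or 2.48-fold. Leaving out each array in turn moved it from 1.24 to 1.40, and normexp correction, which adds an offset of 50, gave 0.85, or 0.89 with quantile scaling. Scaling to spike-in RNA gave 0.86.

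In the RefSeq table the span of Tg overlaps 1 other gene, Sla, an adaptor of lymphocyte receptor signalling. The Sla probe was well above background on 1 of the 8 arrays, at a level of -5.16 on aged replicate 2, and ranged from -6.57 to -6.48 on the other aged arrays and from -7.14 to -5.96 on the young arrays.

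The 5 tested genes outside the set whose levels were most like Tg over the 8 arrays, by Pearson's r as a measure of likeness, were Mcmdc2 (r = 0.989), Cfap298 (0.988), Vamp4 (0.985), Msh5 (0.985) and Lime1 (0.985). Once each gene was centred on its group means, the r values with Tg were 0.85, 0.86, 0.88, 0.85 and 0.88 in the same order. The points share arrays and scaling. The 5 genes were picked for the highest r on these arrays, and the contrast of ages had a part in choosing Tg. Both sets of r values are therefore high by the pick, and nothing is read from their size. Mcmdc2 and Msh5 act in meiotic recombination, Cfap298 in cilia, Vamp4 in vesicle fusion at the Golgi and Lime1 in lymphocyte signalling. Of the spermatocyte marker list, which holds Msh5 too, 18 genes had a probe and all were tested, 14 with higher and 4 with lower aged means. In limma 7 were called higher (0.498% of all genes) and 0 lower. At an unadjusted p under 0.05 stood 12 higher and 3 lower (17.8% and 13.6% of all genes). Lower were Ccna1 (-1.54, groups apart), Pgk2 (-1.02), Ldhc (-0.94) and Hspa2 (-0.39), so the list mean does not stand for all of its genes. The mean of the list ran from -0.02 to 0.45 on aged arrays and from -0.23 to -0.17 on young arrays (log2, with the 8-array mean of each gene set to 0). Its summed level was 113 to 129 times the 75th percentile signal on aged arrays, against 86.1 to 106 times on young arrays. Its part in the values of Tg was not tested, and in sorted samples more cells of a type and more RNA per cell cannot be told apart.

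Chromogranin B, a granin that binds calcium and hormone precursors in the granule, came next. Its processed signal was 132, 171, 171 and 208 units in aged replicates 1 to 4, against 67.6, 88.0, 131 and 107 units in young replicates 1 to 4, so on the unscaled signal aged replicate 1 and young replicate 3 nearly met. Scaled levels were -1.34, -1.08, -1.22 and -1.34 in aged cells and -2.27, -2.20, -1.95 and -1.95 in young cells. The groups were then apart by 0.60. The means were -1.24 ± 0.12 in aged cells and -2.09 ± 0.17 in young cells (SD, n = 4 each), a difference of 0.85 ± 0.12 (SE), or 1.80-fold. It stood at 0.79 to 0.90 with each array left out, at 0.51 with normexp correction (0.57 with quantile scaling as well) and at 0.40 with scaling to spike-in RNA.

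Secretogranin V, the 7B2 chaperone that keeps the Pcsk2 proenzyme inactive until it reaches acidic compartments, gave 70.8, 75.5, 92.9 and 105 units in aged replicates 1 to 4, against 44.1, 52.9, 51.5 and 48.5 units in young replicates 1 to 4. Its scaled levels were -2.22, -2.26, -2.10 and -2.32 in aged cells and -2.90, -2.93, -3.29 and -3.08 in young cells, with no overlap and a gap of 0.58. The means were -2.23 ± 0.09 in aged cells and -3.05 ± 0.18 in young cells (SD, n = 4 each), a difference of 0.83 ± 0.12 (SE), or 1.77-fold. It ranged from 0.75 to 0.88 with each array left out, and was 0.45 or 0.49 with normexp correction and 0.37 with scaling to spike-in RNA. The Pcsk2 probe, for the enzyme that 7B2 accompanies, stayed near background on the same arrays.

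Chromogranin A and secretogranin II were well above background on all arrays and differed little between the ages. Chga levels were -0.77, -0.50, -1.07 and -0.76 in aged replicates 1 to 4 and -1.07, -0.98, -1.27 and -0.99 in young replicates 1 to 4. The lowest aged value stood below 2 of the young values, and the difference was 0.30 ± 0.14 (SE, means -0.78 ± 0.23 and -1.08 ± 0.13, SD, n = 4 each, aged then young). Scg2 levels were -0.99, -0.75, -0.99 and -1.05 in aged cells and -0.996, -1.04, -1.29 and -1.34 in young cells. Aged replicate 4 fell below young replicates 1 and 2, and the difference was 0.22 ± 0.12 (SE, means -0.94 ± 0.14 and -1.17 ± 0.17, SD, n = 4 each, aged then young). Both signs turned with scaling to spike-in RNA, to -0.15 for Chga and -0.23 for Scg2, while the median gene moved to -0.35. Relative to the median gene, Chga stood 0.20 higher and Scg2 0.12 higher. Percentile and spike-in scaling each shift all genes of an array alike, so these values are the same in both by arithmetic. That sameness says nothing about the direction.

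The remaining granin and the convertases were at the floor of the array. Scg3, which tethers chromogranin A to the granule membrane, gave 3.47 to 8.57 intensity units on aged arrays and 2.64 to 7.70 on young arrays, and none of its spots was well above background on any array. Pcsk1 gave 3.89 to 6.51 units on aged arrays and 3.63 to 5.22 on young arrays, again with no spot well above background. Pcsk2 gave 6.79 to 15.3 units on aged arrays and 4.68 to 9.71 on young arrays. Of its 2 spots 1 was well above background on aged replicate 2, and none was on the other 7 arrays. No fold is given for these 3 genes, whose groups overlap and whose values bound the level only from above.

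Cpe, the carboxypeptidase that removes C-terminal lysines and arginines after the convertases have cut, had a lower aged mean, with an exception among the young arrays. Its processed signal was 24.5, 14.4, 36.4 and 40.2 units in aged replicates 1 to 4, against 20.7, 138, 181 and 138 units in young replicates 1 to 4. Scaled levels were -3.75, -4.65, -3.47 and -3.71 in aged cells and -3.98, -1.55, -1.47 and -1.57 in young cells. Young replicate 1 lay within the range of the aged arrays, and the other young arrays lay far above them and within 0.1 of each other. The means were -3.90 ± 0.52 in aged cells and -2.14 ± 1.23 in young cells (SD, n = 4 each), a difference of -1.75 ± 0.55 (SE), or 3.37-fold lower. Leaving out each array in turn moved the difference from -2.37 to -1.50. The first was without young replicate 1 (± 0.26, SE, or 5.15-fold lower) and the second without aged replicate 2. With normexp correction on all arrays it was -0.87, or -0.81 with quantile scaling. Cpe was called lower in 3 of the 22 alternatives, those with normexp correction alone, with spike-in scaling (difference -2.21) and without young replicate 1. Over all genes these called 267 of 10236, 952 of 10236 and 1710 of 10644 lower, in the same order, against 16 of 10236 in the main setting. Because the contrast of ages had a part in choosing Cpe, nothing is read from its calls.

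Markers of peritubular myoid and stromal cells, the contractile and matrix-producing cells around the tubule, moved with Cpe from array to array. All 12 tested markers of 14 on the array had lower aged means (median difference -1.56). In limma 1 was called lower (0.156% of all genes). At an unadjusted p under 0.05 all 12 were lower (13.6% of all genes). The mean of the list was -1.42 to -0.32 on aged arrays, against -0.64 in young replicate 1 and 1.09 to 1.28 in the other young arrays. Its summed level was 2.0 to 4.25 times the 75th percentile signal on aged arrays, against 3.41 times in young replicate 1 and 12.9 to 14.8 times in the other young arrays, and Lum was not well above background on any array. The 5 genes outside the set most like Cpe over the 8 arrays, a search added after its values were seen, were Des (r = 0.998), RT1-T18 (0.998), Acta2 (0.997), Tpm2 (0.996) and Myh11 (0.996). Within groups r was 0.99 or above for each. Young replicate 1, at -3.98 for Cpe against -1.57 to -1.47 on the other young arrays, weighs heavily in these r values. Des, Acta2, Tpm2 and Myh11 encode contractile or filament proteins of muscle, and Des, Acta2 and Myh11 stand in the myoid list. Macrophage and spermatid markers were also lower in young replicate 1 than in the other young arrays, with summed levels of 9.29 against 27.8 to 30.6 and of 341 against 629 to 840. Sertoli cell markers were lower there too, at 7.10 against 14.6 to 15.5. Spermatogonial markers (100 against 72.5 to 78.0), neuroendocrine markers (79.5 against 55.7 to 60.7) and thyroid follicle markers (16.2 against 7.58 to 9.02) were higher in young replicate 1 than in the other young arrays. Uchl1, which is in both the spermatogonial and the neuroendocrine list, made up most of those sums, and Foxe1 most of the thyroid follicle sum. The list means, in which each gene counts alike, were also higher there. They were 0.19 against -0.002 to 0.09, 0.17 against -0.11 to -0.06 and 0.41 against -0.28 to -0.001, in the same order. The part of any of these cell types in the values of Cpe was not tested.

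**Figure D2:**
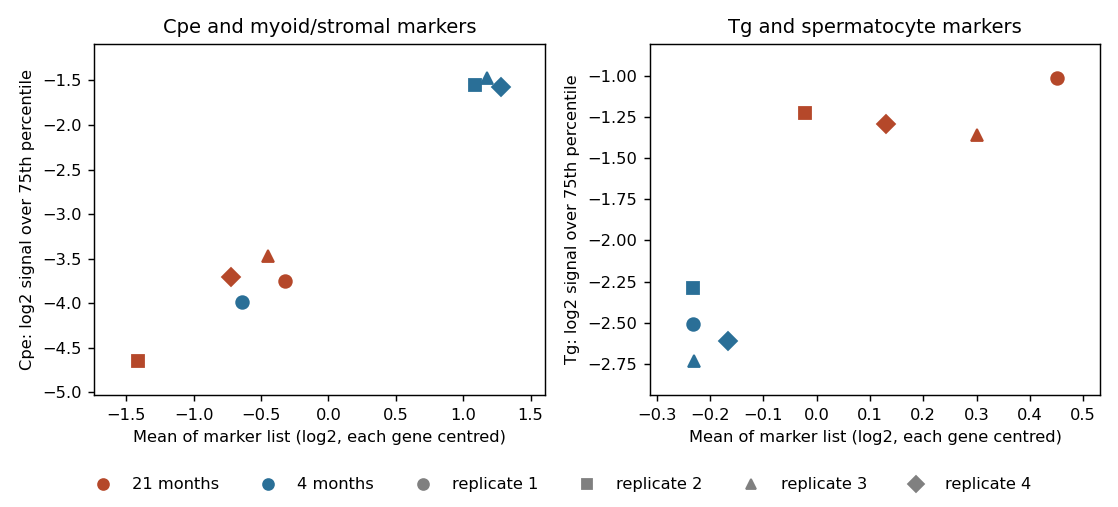
Left, Cpe level against the mean of the myoid and stromal marker list, and right, Tg level against the mean of the spermatocyte marker list, 1 point per array (red, aged; blue, young; log2 scales). Cpe and the myoid and stromal list place young replicate 1 among the aged arrays and the other 3 young arrays apart. Tg and the spermatocyte list were both lower on all 4 young arrays than on the aged arrays. Neither pairing was planned beforehand, and the contrast of ages had a part in choosing Tg, so nothing is read from that separation.

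Markers of cells that make granins or thyroglobulin elsewhere in the body were measured on the same arrays. Of 14 markers of neuroendocrine and neuronal cells 11 had a probe and 7 were tested, with 0 called in limma (0 at an unadjusted p under 0.05) and a median difference of -0.01. Neurod1, Dbh, Gap43 and Nefl were not well above background on any array. The summed level was 63.5 to 73.1 times the 75th percentile signal on aged arrays and 55.7 to 79.5 times on young arrays, most of it from Uchl1 (levels 6.04 ± 0.08 in aged and 5.91 ± 0.23 in young cells, SD, n = 4 each), which is a spermatogonial marker as well. Of the 6 thyroid follicle markers Tshr and Nkx2-1 were not well above background on any array, and 3 were tested with 0 called (0 at an unadjusted p under 0.05). Foxe1, a transcription factor of the thyroid, was among these 3, at 3.38 ± 0.26 in aged and 3.23 ± 0.52 in young cells (SD, n = 4 each). Of 10 Leydig cell markers 7 were tested with 0 called (1 higher at an unadjusted p under 0.05, Fdx1). Star, Lhcgr and Nr5a1 did not pass the filter, and Lhcgr was not well above background on any array. The summed level was 7.75 to 8.63 times the 75th percentile signal on aged arrays, against 6.38 to 7.79 times on young arrays. Most of it came from Fdx1 (levels 2.36 ± 0.03 in aged and 1.99 ± 0.23 in young cells, SD, n = 4 each).

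The other genes of these pathways were read from 5 lists of 183 genes in all. Over all genes tested, limma called 0 genes of any of the 5 lists, with all 8 arrays, the percentile scaling and no added correction. Of the 107 list genes tested, 7 passed the filter through 1 age group alone, with at least 1 array of the other group near background. With both directions counted, 1 of 12 thyroid hormone genes, 4 of 21 docking genes and 8 of 29 prohormones stood at an unadjusted p under 0.05. These shares lay below the 31.4% of all genes. The 7 of 20 processing genes and 9 of 25 folding genes lay slightly above it. By direction the shares of all genes were 17.8% higher and 13.6% lower, to be set beside the directions given for each list. In the thyroid hormone list 12 of 27 genes were tested (median difference 0.14, 9 higher and 3 lower, with 0 higher and 1 lower at an unadjusted p under 0.05). Dio3, the deiodinase that inactivates thyroid hormone, had levels of -1.60, -1.90, -1.96 and -1.71 in aged replicates 1 to 4, against -1.04, -1.55, -1.50 and -1.50 in young replicates 1 to 4. All aged values were below the young ones, with a difference of -0.39 ± 0.15 (SE, adjusted p = 0.116). Thra, a thyroid hormone receptor, stood at -0.71 ± 0.34 (adjusted p = 0.180) and Hhex, a transcription factor of thyroid development, at 0.22 ± 0.13 (adjusted p = 0.275).

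Among genes of peptide processing and granule proteins 20 of 27 were tested (median 0.22, 15 higher and 5 lower, with 4 higher and 3 lower at an unadjusted p under 0.05). Slc18a1, a vesicular transporter of monoamines, had levels of -3.59, -3.97, -4.08 and -3.93 in aged cells, against -4.96, -4.33, -5.51 and -4.70 in young cells. It was well above background on 4 aged but only 2 young arrays, so it passed the filter through the aged group, where it was higher, and its young values lie near background. The fitted difference was 0.98 ± 0.24 (adjusted p = 0.0568). Ica1, an autoantigen that regulates granule traffic, differed by -0.77 ± 0.23 (adjusted p = 0.0788) and Atp6ap1, an accessory subunit of the proton pump that acidifies vesicles, by 0.42 ± 0.13 (adjusted p = 0.0849). The enzymes that could stand beside Pcsk1 and Pcsk2 were measured, and are named after their values were seen. Pcsk4, the convertase of germ cells, which is in the spermatid marker list too, differed by -0.25 ± 0.11 (adjusted p = 0.144), Furin, the general convertase of the Golgi, by 0.18 ± 0.13 (adjusted p = 0.361) and Pam, which amidates peptides, by -0.30 ± 0.18 (adjusted p = 0.281). Pcsk1n, a granin-like inhibitor of Pcsk1, stood at 0.37 ± 0.18 (adjusted p = 0.199), and Vgf, a granin-like precursor that was well above background on 4 aged and 3 young arrays and so also passed the filter through the aged group, at 0.42 ± 0.24 (adjusted p = 0.259).

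For docking and exocytosis 21 of 39 genes were tested (median 0.07, 13 higher and 8 lower, with 4 higher and 0 lower at an unadjusted p under 0.05). Vamp3, a vesicle SNARE, was at 4.74, 4.71, 4.67 and 4.72 in aged cells, against 4.44, 4.17, 4.05 and 4.16 in young cells. The groups were apart, with a difference of 0.51 ± 0.11 (adjusted p = 0.0561). Cplx1, a clamp on SNARE fusion, differed by 0.47 ± 0.14 (adjusted p = 0.0801) and Rims2, a scaffold of release sites, by 0.44 ± 0.14 (adjusted p = 0.0903).

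Of 62 prohormones and neuropeptides 29 were tested (median 0.04, 18 higher and 11 lower, with 4 each way at an unadjusted p under 0.05). Cort, the precursor of cortistatin, was at -1.91, -1.53, -1.74 and -1.29 in aged cells, against -2.13, -2.07, -2.43 and -2.58 in young cells, a difference of 0.68 ± 0.17 with the groups apart (adjusted p = 0.0617). Nmb, the precursor of neuromedin B, differed by 0.55 ± 0.14 with the groups apart (adjusted p = 0.0664). Adcyap1, which encodes the peptide PACAP and is known in spermatids of the rat, was at -3.61, -3.96, -3.60 and -3.45 in aged cells, against -3.31, -1.95, -1.09 and -0.91 in young cells. Its aged values were all below its young ones, but young replicate 1 lay close to the highest aged array, and the difference was -1.84 ± 0.46 (adjusted p = 0.0622). Without young replicate 1 the Adcyap1 difference was -2.34 ± 0.25 and passed (adjusted p = 0.00292). Cort and Nmb passed in that fit too (adjusted p = 0.019 and 0.0065), where 36.9% of all genes were called. Spermatid markers, which young replicate 1 also held at a lower level, were lower in aged cells for all 17 genes (median -0.95, 0 called, 10 lower at an unadjusted p under 0.05), and their part in the values of Adcyap1 was not tested.

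The genes of folding and export of secretory proteins, on which thyroglobulin depends in the thyroid, had small differences. Of 28 genes 25 were tested, 23 with higher and 2 with lower aged means. The median was 0.21 beside 0.11 for all genes, of which 63.4% had a higher aged mean. At an unadjusted p under 0.05 stood 8 of the 25 higher and 1 lower (17.8% and 13.6% of all genes). The higher share was thus above that of all genes and the lower share below it. Calr, a lectin chaperone of the endoplasmic reticulum, was at 3.50, 3.33, 3.24 and 3.34 in aged cells, against 3.16, 3.0, 2.89 and 3.06 in young cells, a difference of 0.32 ± 0.11 with the groups apart (adjusted p = 0.0949). Dnajb11, a cochaperone of BiP, differed by 0.35 ± 0.11 (adjusted p = 0.0867) and Ddit3, a transcription factor of the unfolded protein response, by 0.28 ± 0.09 (adjusted p = 0.0964), both with the groups apart.

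**Figure D3:**
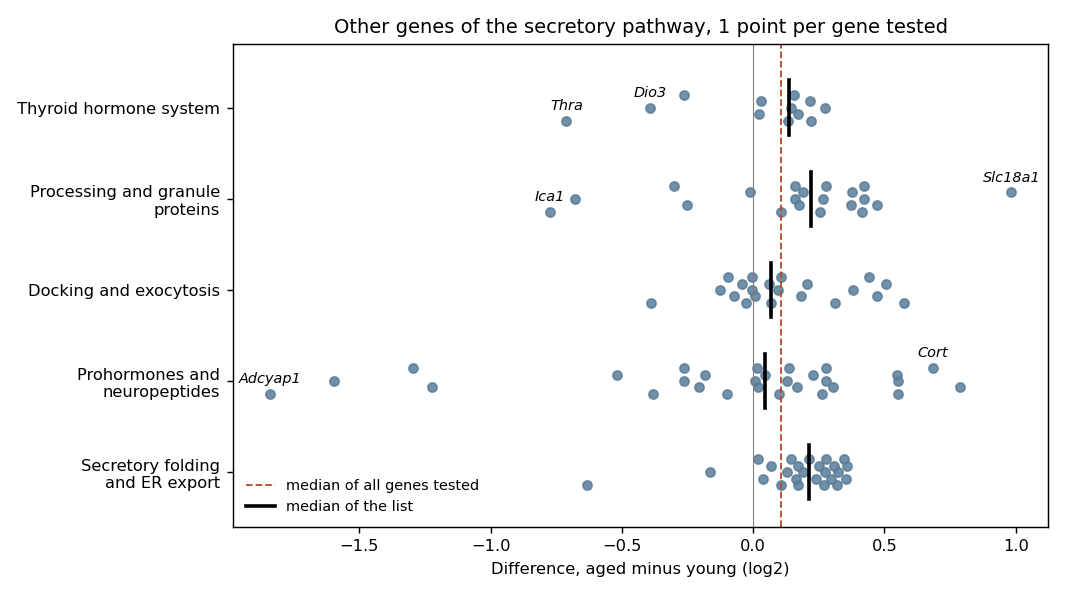
Difference of each tested gene of the 5 lists (aged minus young, log2, 1 point per gene), with the median of each list (black bar) and of all genes tested (dashed line, 0.11). List medians run from 0.04 for prohormones and neuropeptides to 0.22 for processing and granule proteins, and Adcyap1 at -1.84 and Slc18a1 at 0.98 are the ends.

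Leaving out young replicate 1, whose myoid, macrophage, spermatid and Sertoli markers were low and spermatogonial markers high among the young arrays, moved the count over all genes from 67 to 3927 calls of 10644 tested (36.9%), with 2217 higher (20.8%) and 1710 lower (16.1%). In the 5 lists, higher and lower calls were then 1 and 1 of 12 for thyroid hormone, 3 and 3 of 20 for processing and granule proteins, 3 and 0 of 21 for docking, 3 and 6 of 32 for prohormones and 11 and 1 of 25 for folding and export. Folding and export was the list with a share above the 36.9% of all genes. The 32 prohormones include 3 more than the 29 tested with all arrays, since the filter was applied again to the arrays left. Leaving out any other single array left 0 calls over all genes in limma (1954 to 3006 genes at an unadjusted p under 0.05), Tg, Chgb and Scg5 included. Their differences hardly moved in those fits, as given above.

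**Figure D4:**
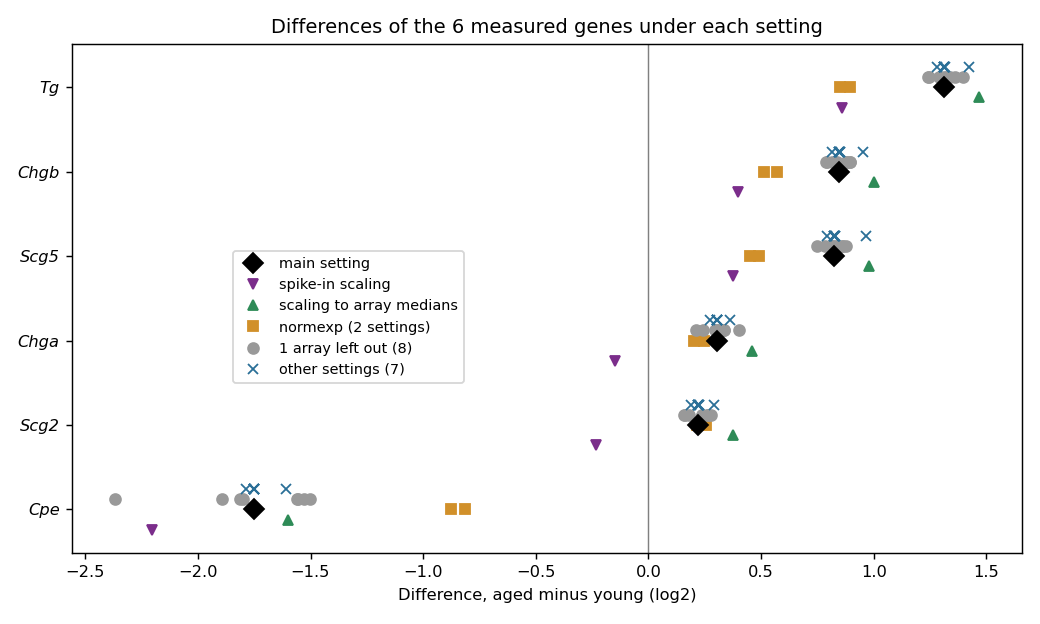
Difference of the 6 measured genes (aged minus young, log2) in the main setting (diamond) and under 19 alternatives, grouped by kind. Tg, Chgb and Scg5 stay above 0 and Cpe below 0 under all of them, while Chga and Scg2 cross 0 with spike-in scaling.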

How the data were processed

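The deposited scanner output of 8 arrays came from Agilent Feature Extraction 10.7.3.1 per the file headers, while the submitters' processing notes name version 12.5. Per the file headers, the deposited intensity used here (linear scale) had background and a spatial trend removed and was not scaled between arrays. A deposited series table holds log2 values with a median of 0 for each probe; it was an alternative, and its earlier scaling is not given in the sources used here. Flags of 0 or 1 mark spots well above background.

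Outlier and control spots were left out, spots of a probe averaged on the log2 scale, and each array's 75th percentile subtracted. Accessions without version named 17998 of 30367 probes (15154 genes) through the RefSeq table of GRCr8. Probes entered the fit when, on all arrays of 1 or both groups, a share of 0.5 or more of their spots passed the background test, and the brightest kept probe stood for a gene. Genes were tested with limma 3.58.1 in R 4.3.3 (lmFit, eBayes, two-sided, Benjamini-Hochberg over 10236 genes), and the code was tested on simulated data. All adjusted p-values are from this limma fit or, where said, the same fit without young replicate 1.

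The 9 genes and the 5 lists were chosen with earlier results of these data known. Named from each list are up to 3 genes by smallest adjusted p, unless said otherwise, and for Tg the 5 most alike genes. The 22 alternatives are described in the closing section. Each of the 9 genes has 1 probe, so no second probe could be set beside it.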

Additional observations from a re-analysis of the deposited data

Results flagged for a closer look

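Of 48 combinations of a named gene and an age group, 5 held an array far from the other 3 by Dixon's ratio (gap over range, above its 95% critical value for 4 arrays), where chance flags about 1 in 20. For Cpe, young replicate 1 was lowest, at -3.98 against -1.57 to -1.47 (ratio 0.961). For Pcsk1, near background, it was highest, at -6.16 against -6.95 to -6.82 (ratio 0.830). For Dio3 it was highest, at -1.04 against -1.55 to -1.50 (ratio 0.903). For Atp6ap1, young replicate 3 was lowest, at 2.37 against 2.57 to 2.59 (ratio 0.902). For Ica1, aged replicate 4 was highest, at 1.16 against 0.50 to 0.60 (ratio 0.843).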

How the results depend on the processing

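Of 22 alternatives, 10 called 3 or more of the 9 genes, 1 called 2 and 11 called none of them. Against 67 genes called over all genes, there were 630 with normexp correction, 253 with normexp and quantile scaling, 1330 with median scaling, 958 with spike-in scaling (4 probes) and 270 with a trended, robust variance. In limma 0 were called with no scaling, without the filter on dim probes and with unnamed probes tested too (1389, 3339 and 4929 at an unadjusted p under 0.05). The count was 63 with quantile scaling, 71 with the authors' deposited values, 73 for probes above background on all arrays, 53 with the mean of a gene's probes and 72 with outlier spots kept. With single arrays left out it ran from 0 to 3927. The cause was not tested.

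With the replicate number as a block (replicate block), limma called 0 genes (3231 at an unadjusted p under 0.05). Deviations of same-numbered arrays correlated at -0.26, -0.12, 0.44 and 0.35, positive for 2 of the 4 numbers, so the numbers were not taken to pair the samples.

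Called list genes, 0 in the main setting, numbered 3 (processing), 4 (docking), 5 (prohormones) and 4 (folding) with median scaling, 1 (thyroid), 2 (processing) and 6 (prohormones) with spike-in scaling, 1 (docking) and 1 (prohormones) with normexp, and 1 (docking) with the trended variance. With single arrays left out they ran from 0 to 2 (thyroid), 6 (processing), 3 (docking), 9 (prohormones) and 12 (folding). Chga (-0.15) and Scg2 (-0.23) changed sign with spike-in scaling. Tg, Chgb, Scg5 and Cpe kept their sign under 19 of 19 alternatives. Relative to the median gene Tg stood 0.77 to 1.32 higher over all settings with every array kept. The number of arrays and, for Scg3, Pcsk1 and Pcsk2, signal near background limit the precision.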

Other observations

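Marker lists not described above gave these values. Spermatogonial markers had a median difference of -0.16 over 15 genes tested (4 higher and 11 lower aged means, 0 called in limma, 1 higher and 2 lower at an unadjusted p under 0.05), with summed levels of 80.6 to 90.7 times the 75th percentile signal on aged arrays and 72.5 to 100 times on young arrays. For Sertoli cells 8 markers were tested (1 called higher, median -0.03), with summed levels of 8.07 to 17 times on aged arrays and 7.10 to 15.5 times on young arrays, and Gdnf was not well above background on any array. Macrophage markers had lower aged means in 12 of 12 genes tested (median -0.74, 0 called in limma, 3 lower at an unadjusted p under 0.05). Endothelial markers (5 tested, 0 called in limma, 1 higher and 2 lower at an unadjusted p under 0.05) and markers of other blood cells (8 tested, 0 called in limma, 0 at an unadjusted p under 0.05) had medians of -0.11 and 0.07.

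Among prohormones, the genes called lower without young replicate 1 were, beside Adcyap1, named after their values were seen: Penk (proenkephalin, -2.14, adjusted p = 0.00490), Igf1 (-1.81, adjusted p = 0.0190), Insl6 (a relaxin family peptide of the testis, -1.65, adjusted p = 0.0119) and Avp (vasopressin, -0.55, adjusted p = 0.0149), all aged minus young on the log2 scale in limma. The 3 prohormones called higher in the same limma fit were Cort (0.74, adjusted p = 0.019), Nmb (0.66, adjusted p = 0.0065) and Pyy (0.40, adjusted p = 0.021). That fit called 36.9% of all genes. All of these named genes were tested with all 8 arrays too, and were not called there. The other one of the 6 lower calls, Edn3 (endothelin 3), did not pass the filter on dim probes with all 8 arrays and passed without young replicate 1 through the young group, where it is high, so no value is given for it.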
